A study of Mus musculus with 2 samples.

Results

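Foxp3, Ikzf2, Il2ra, Penk, Ramp1, Ccr8, Tnfrsf4, Tnfrsf18 and Icos are 9 genes of regulatory T cells, or genes found beside them, that were followed in single immune cells of MC38 tumours. They were taken by symbol from the gene tables of both libraries, which list 27998 genes, and all 9 were present. They were chosen by values already seen in these libraries, namely co-detection with Foxp3 in single T cells and levels in other cells, so those values are given as a description and not as a test. The cells were CD45+ leukocytes sorted from subcutaneous tumours of C57BL/6 mice. MC38 is a mouse colon adenocarcinoma line, here carrying green fluorescent protein, and 50000 cells were placed below the right shoulder. Every mouse received anti-PD-1 antibody, a blocker of an inhibitory receptor of T cells, at a dose of 100 ug that the submitters call sub-optimal, first on day 12 and again on days 15, 18 and 22. Tumours that responded gave 1 library and tumours that did not gave the other, with no untreated library. The sources used here give neither the age and sex of the mice nor the number of tumours behind a library.

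Regulatory T cells are CD4+ T cells that restrain other lymphocytes, and the transcription factor Foxp3 defines them. Ikzf2 encodes Helios, a zinc finger factor found in many of them. Il2ra encodes CD25, which makes the interleukin-2 receptor high-affinity, and Tnfrsf4 (OX40), Tnfrsf18 (GITR) and Icos are co-stimulatory receptors that activated T cells of other kinds also carry. In tumours these cells often display the chemokine receptor Ccr8. Penk encodes proenkephalin, which is cut into opioid peptides, and Ramp1 encodes a membrane partner that turns the calcitonin receptor-like receptor into the receptor for the neuropeptide CGRP.

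After filtering, the responder library held 4376 cells with a median of 10043 transcript counts (unique molecular identifiers, UMIs) and the non-responder library 2565 cells with a median of 11752. Clustering gave 94 responder and 69 non-responder T cell-like cells, against 4170 and 2442 macrophage-like cells. A further 89 and 17 droplets carried the markers of both and were called mixed, and 1 and 17 cells were NK cell-like. The T cell-like class consisted of clusters L2, L3, L4 and L7, and its make-up differed between the libraries: L7 held 69 of the 94 responder cells and none of the 69 others. The class was shallower than macrophage-like cells, with medians of 3705 and 4912 UMIs against 10065.5 and 11870.5. The libraries shared 14 cell barcodes, 2 of them on non-responder T cell-like cells. Levels are the summed counts of a class on the CPM scale, that is, relative to its total UMIs. With 1 library in each group there was no replicate check and no test, so each difference separates these libraries only, and brackets give 95% intervals that cover counting error only.

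Foxp3 marked a small set of T cells that was a larger fraction of the T cells in the non-responder library. A Foxp3 UMI was present in 4 of 94 responder T cell-like cells, 4.26% [1.17-10.5], and in 15 of 69 non-responder cells, 21.7% [12.7-33.3]. The intervals do not overlap. With every cell thinned to 2000 UMIs, so that depth was equal, the shares were 2.13% [0.259-7.48] and 15.9% [8.24-26.7], and again did not overlap. Macrophage-like cells, which should lack the gene and were the deeper class by the medians above, had a Foxp3 UMI in 1 of 4170 cells of the responder library, 0.0240%, and in 10 of 2442 of the other, 0.410%.

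All 19 T cells with Foxp3 lay in cluster L4, which held 5 responder and 20 non-responder cells. Its share of the T cell-like cells was 5.32% [1.75-12.0] (responder) and 29.0% [18.7-41.2] (non-responder). Outside it, Foxp3 was found in 0 of 89 responder cells and 0 of 49 non-responder cells. Taken as a limit of 3 cells, these zeros allow a share of up to 3.37% and 6.12% of cells with a UMI, which is not a limit on cells that express the gene. The 9 genes were not kept out of the clustering, so their height in L4 is not a finding. When they were kept out of it, or the resolution was set to 0.5 or 2.0, the same 25 cells again formed a cluster of their own. All 25 cells had 0 UMIs of Cd8a, the chain of the cytotoxic co-receptor, while Cd4 was seen in 2 of the 5 cells from the responder library and 12 of the 20 from the other.

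L4 was checked against the defining markers of other cells. Of the 14 T cell markers in the files, 12 were detected in L4 in each library. The NK markers Ncr1, Klrb1c, Klre1, Klra8, Eomes and Gzma were at 0 in all 25 cells. Of the markers of type 2 innate lymphoid cells, Il5, Il13 and Areg were at 0, while Gata3 and Rora, which T cells also express, carried most of that list's 19 responder and 24 non-responder UMIs. Of the 16 macrophage markers, 8 were detected in the responder and 13 in the other L4 cells, with 5 to 16 and 1 to 15 UMIs in a cell, and Csf1r, Mrc1 and Ly6c2 were at 0. The macrophage genes C1qa, C1qb, C1qc, Apoe, Lyz2 and Csf1r together had a median of 24.3 UMIs per 10000 in responder L4 cells and 8.20 in non-responder ones, against 432 and 422 in macrophage-like cells. That trace of macrophage RNA was thus larger in the responder cells, and its part in the values below was not tested.

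**Figure D1:**
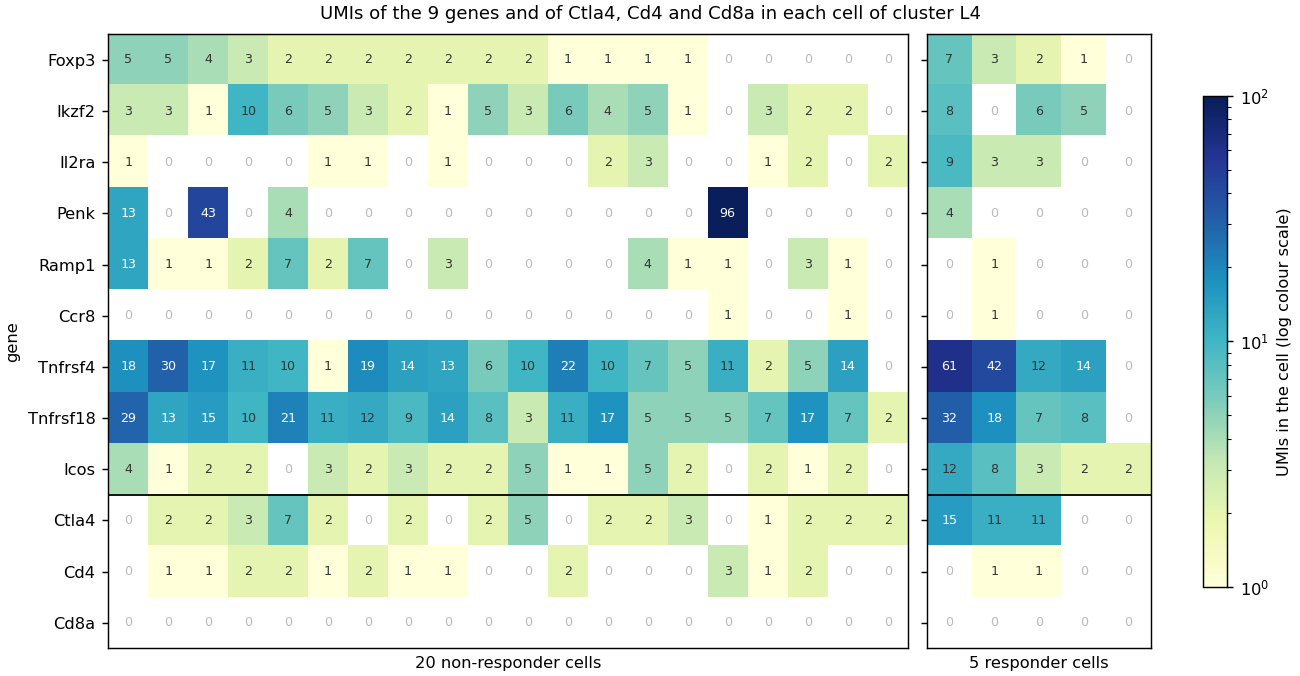
UMIs of each of the 9 genes, and of Ctla4, Cd4 and Cd8a, in every cell of cluster L4 (1 column per cell, 20 non-responder cells on the left and 5 responder cells on the right, ordered by Foxp3). Colour gives the UMI number on a log scale and white is 0. Tnfrsf4 and Tnfrsf18 fill nearly every column, Penk fills 4 non-responder columns and 1 responder column, and Cd8a fills none.

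Within L4 the transcription factors were sparse and the tumour necrosis factor receptors abundant. Foxp3 had 7, 3, 2, 1 and 0 UMIs in the 5 responder cells, and in the 20 non-responder cells the lowest, median and highest were 0, 2 and 5. Ikzf2 ranged from 0 through a median of 3 to 10 UMIs in the non-responder cells and was 8, 6, 5, 0 and 0 in the responder cells. The ranges of the libraries overlapped for both factors.

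Tnfrsf4 and Tnfrsf18 had the highest medians of the 9 genes in the non-responder cells. The 5 responder cells had 61, 42, 14, 12 and 0 UMIs, and the non-responder cells ran from 0 through a median of 10.5 to 30. The responder cells with 61 and 42 UMIs stood above every non-responder cell. Tnfrsf18 was 32, 18, 8, 7 and 0 in the responder cells and 2 to 29, with a median of 10.5, in the non-responder cells. The responder cell at 0 for Foxp3, Tnfrsf4 and Tnfrsf18 had 21 UMIs of the Cd3 chains and, of the 9 genes, only Icos, with 2 UMIs.

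Foxp3 (GRCm38 chromosome X, 7573644 to 7595245) sets the frame for the co-detection of the other 8 genes, which was examined in each library on its own. The T cells without Foxp3 were mostly cells with Cd8a, 37 of 54 in the non-responder and 84 of 90 in the responder library. Cd4 was seen in 3 and 1 of them, so the contrast is not one with other helper T cells. In the non-responder library, Ikzf2, Tnfrsf4 and Tnfrsf18 were each detected in 15 of the 15 T cells with Foxp3 and Icos in 14. The T cells without Foxp3 were not empty of them: Ikzf2 was in 23 of 54, Tnfrsf4 in 17, Tnfrsf18 in 40 and Icos in 16. The median depth of the cells with Foxp3, 4562 UMIs, was below the 5059.5 of those without. Detection alone therefore set Tnfrsf4 and Icos further apart than Tnfrsf18, which most T cells carried.

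Ramp1 and Il2ra were seen in part of the Foxp3 cells only. Ramp1 was in 10 of 15 non-responder cells with Foxp3, 66.7% [38.4-88.2], against 10 of 54 without, 18.5% [9.25-31.4]. With every cell thinned to equal depth the Ramp1 shares were 45.5% [16.7-76.6] and 12.1% [4.99-23.3], and their intervals overlap. Thinning removes Foxp3 UMIs too, so these are shares of 11 cells that kept Foxp3 and of 58 others. The 58 include cells that had Foxp3 at full depth, so the change in shares is not that of depth alone. For Il2ra the numbers at full depth were 6 of 15, 40.0% [16.3-67.7], and 6 of 54, 11.1% [4.19-22.6], and these intervals overlap. Penk was in 3 of 15 and 3 of 54, also with overlapping intervals. Ccr8 was in 0 of 15, which by the same limit allows up to 20% of cells with a UMI, and in 2 of 54.

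Only 4 responder T cells carried Foxp3, so their shares have wide intervals. Tnfrsf4, Tnfrsf18 and Icos were in 4 of the 4, Ikzf2 and Il2ra in 3, and Penk, Ramp1 and Ccr8 in 1 each. Among the 90 responder cells without Foxp3, Icos was in 71, Tnfrsf18 in 71 and Tnfrsf4 in 39, whereas Ikzf2 was in 8 and Il2ra in 7. For Ikzf2 the shares of 75% [19.4-99.4] and 8.89% [3.92-16.8] do not overlap, and for Il2ra 75% [19.4-99.4] and 7.78% [3.18-15.4] do not either. For Icos the shares overlap, 100% [39.8-100] against 78.9% [69.0-86.8]. The responder cells with Foxp3 were the deeper ones, with a median of 4677.5 UMIs against 3705. With every cell thinned to equal depth, 2 of the 4 responder cells kept Foxp3, and those that lost it were counted among the cells without. Il2ra was then in 1 of the 2, 50% [1.26-98.7], against 3.26% [0.678-9.23] of the 92 others, and these intervals overlap. Those of Ikzf2 stayed apart, at 100% [15.8-100], which is 2 of 2 cells, and 6.52% [2.43-13.7]. In both libraries the overlap of intervals is given as a description and not as a test. The genes were chosen with this co-detection known, and cells are not replicates.

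**Figure D2:**
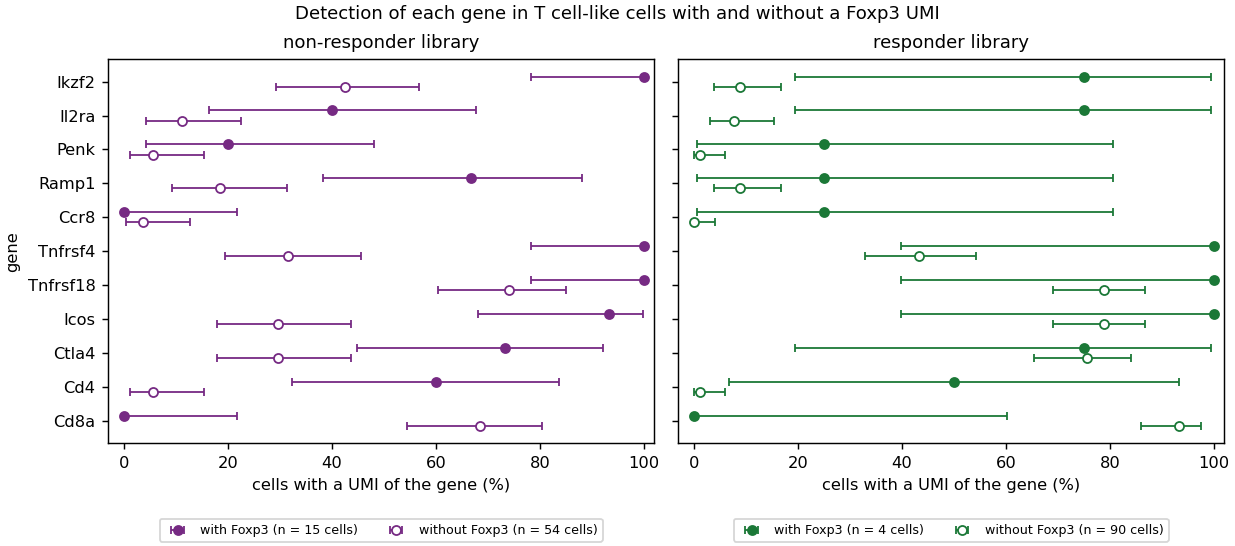
Share of T cell-like cells with a UMI of each gene, for cells with Foxp3 (filled) and without (open), with exact 95% intervals, non-responder library on the left and responder library on the right. In the non-responder library the intervals of Ikzf2, Ramp1, Tnfrsf4, Icos, Ctla4, Cd4 and Cd8a are apart, and with only 4 cells with Foxp3 most responder intervals overlap. Cells are at full depth here. With every cell thinned to equal depth, 11 of the 15 non-responder cells keep Foxp3, and those that lose it count as cells without. The intervals of Ramp1, Ctla4 and Cd4 then overlap, those of Ikzf2, Tnfrsf4, Icos and Cd8a stay apart, and those of Tnfrsf18 come apart.

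The same contrast in CPM gave fold differences in one direction. Of the other 8 genes, 6 reached the 20 counts set as the minimum for a ratio in the non-responder library, and all 6 were more than 2-fold higher in the cells with Foxp3, where 11.6% of all 2213 measured genes were. The folds were 13.1 for Ramp1, 7.94 for Tnfrsf4, 7.14 for Icos, 5.31 for Ikzf2, 5.13 for Tnfrsf18 and 2.66 for Penk. Nearly all Penk UMIs of the cells without Foxp3, 96 of them, were in 1 cell that is described further on. In the responder library all 5 measured genes were past 2-fold, beside 17.2% of 2366 genes. They were Ikzf2 at 39.4-fold, Tnfrsf4 at 23.2-fold, Il2ra at 21.6-fold, Tnfrsf18 at 6.78-fold and Icos at 2.11-fold. The genes were chosen with this co-detection known, so nothing is read from these counts. Without the responder cell that had the most Penk, which was also the one with 7 Foxp3 UMIs, 4 genes were measured and 3 were past 2-fold.

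Further genes of regulatory T cells were taken from a list of 28. In the non-responder library 13 were measured, 8 were more than 2-fold higher in the cells with Foxp3 and 0 lower, beside 11.6% and 11.3% of all genes, with a median log2 ratio of 1.50 where that of all genes was 0.06. Izumo1r, the folate receptor 4 of such cells, stood at 478 against 18.3 CPM. Klrg1, a receptor of differentiated effector cells, was at 273 against 6.09 CPM, and Ctla4, an inhibitory receptor, at 437 against 70.1 CPM. In the responder library 11 were measured, 5 higher and 1 lower, beside 17.2% and 9.47% of all genes. Of the 11, 2 had 0 UMIs in the 4 cells with Foxp3. With such genes ranked lowest the median log2 ratio was -0.50, where that of all genes was -0.04. The count minimum applied to the sum of both sets, so a gene could pass it through the cells without Foxp3 alone. Maf, Izumo1r and Klrg1 fell short, with 10, 11 and 9 UMIs in cells with Foxp3 and 4, 8 and 9 in others. Other genes that fell short had 0 UMIs in the cells with Foxp3, Nt5e among them. The median therefore describes the genes that passed and not the whole list. In the responder library Ctla4 was at 1772 against 528 CPM and Il1r2, a decoy receptor of interleukin-1, at 527 against 35.9 CPM. The signalling regulator Rgs16 had 0 UMIs in the cells with Foxp3 and 372 in the others.

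Most cytotoxic genes were lower in the T cells with Foxp3. Of a list of 9, 8 were measured in each library. In the non-responder library 7 were lower and 1 higher, beside 11.3% and 11.6% of all genes. Of the 7, 5 had 0 UMIs in the cells with Foxp3. Those 5 passed the count minimum through the cells without Foxp3 alone, and could only be called lower. Gzmc, also among the 7, had 1 UMI against 243, and 175 of the 243 were in the L4 cell with 96 Penk UMIs. In the responder library 6 were lower and 0 higher, beside 9.47% and 17.2%. Of the 8 measured in that library, 4 had 0 UMIs in the cells with Foxp3. There Gzmb was within 2-fold, and Gzmf had 0 UMIs against 44, where 3 counts in place of the 0 gave no bound past 2-fold. Cd8a had 0 UMIs in the cells with Foxp3 and 306 (non-responder) and 837 (responder) in those without. The granzyme gene Gzmb was the 1 that was higher, at 1817 against 719 CPM in the non-responder library, and it was at 3209 against 3972 CPM in the responder library.

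The genes whose detection was most like that of Foxp3 over the 94 and 69 T cell-like cells were listed by the phi coefficient, the correlation of detected with detected. Cd4, the helper co-receptor, came highest at 0.61, followed by Itgb7 (an integrin chain) at 0.59, Ebi3 (a subunit of interleukin-35 and interleukin-27) at 0.57, Rapsn at 0.54, Izumo1r at 0.53, Lmna at 0.51, Maf at 0.47 and Rarg at 0.46. Itgb7 was in 15 of 15 non-responder cells with Foxp3 and in 11 of 54 without. Of the other 8 genes, Ikzf2 had a phi of 0.51, Tnfrsf4 0.39, Ramp1 0.38, Il2ra 0.36, Penk 0.27, Icos 0.23, Tnfrsf18 0.18 and Ccr8 0.09. Cells of both libraries were pooled, and library and depth are shared by these values, which are a description only.

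Levels in all T cell-like cells were then set side by side between the libraries. Of the 8 genes with enough counts, 1 was more than 2-fold higher and 4 more than 2-fold lower in the responder library, where 8.32% and 4.28% of 3763 measured genes were. Icos was the higher one, and Penk, Ramp1, Ikzf2 and Foxp3 the lower ones. The median log2 ratio of the 8 was -0.99 and that of all genes 0.10. Cluster L7, with 69 responder cells, and L4, with 20 non-responder cells, enter this comparison on opposite sides, so the values within L4 and outside it are given beside it.

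Ikzf2 (chromosome 1, 69531214 to 69687245) had 28 UMIs in responder and 107 in non-responder T cells, or 68.2 [45.3-98.5] and 266 [218-322] CPM, a log2 ratio of -1.97 [-2.62 to -1.36]. Foxp3 had 13 and 35 UMIs, or 31.6 [16.8-54.1] and 87.2 [60.7-121] CPM, a log2 ratio of -1.46 [-2.50 to -0.51]. Within L4 neither factor was past 2-fold, with log2 ratios of 0.26 [-0.56 to 1.01] for Ikzf2 and 0.60 [-0.44 to 1.56] for Foxp3. All Foxp3 UMIs of T cell-like cells lay in L4, whose share of these cells was smaller in the responder library. The part of that share in the totals was not tested, and the ratios within L4 rest on 5 responder cells. The level of Ikzf2 outside L4 was lower in the responder library too.

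Ikzf2 also differed outside L4, among cells that had no Foxp3. Its level was 23.2 CPM in responder and 137 CPM in non-responder cells, a log2 ratio of -2.56 [-3.79 to -1.51]. The non-responder level was alike in L3, with 134 CPM in 11 of 23 cells, and in L2, with 141 CPM in 9 of 26 cells. L3 is a CD8+ cluster in which Cd8a was seen in all 23 non-responder and all 15 responder cells, and within it Ikzf2 was again lower in the responder library, at 22.1 CPM with 2 UMIs. L7, the CD8+ cluster of the responder library, had 25.0 CPM. Of the 9 genes 4 were measured outside L4, with 1 higher and 1 lower, beside 11.1% and 4.45% of 3324 genes.

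Icos (chromosome 1, 60977927 to 61000320) was the 1 gene higher in the responder T cells. It had 246 UMIs, spread over 75 of 94 cells, against 57 UMIs in 30 of the 69 non-responder cells, or 599 [526-678] and 142 [108-184] CPM, a 4.22-fold difference. Inside L4 the fold was 2.76, with 12, 8, 3, 2 and 2 UMIs in the responder cells and at most 5 in a non-responder cell. Outside L4 it was 10.2, and 205 of the responder UMIs lay in L7, at 732 CPM. In L3, the CD8+ cluster with cells of both libraries, the level was 132 [68.4-231] against 61.0 [29.3-112] CPM, and the intervals overlap. Of the 4 genes measured in L3, 1 was past 2-fold higher in the responder library (Icos) and 1 lower (Ikzf2), beside 7.20% and 5.44% of 1527 genes. Ctla4 had the same order, with 1576 against 406 CPM inside L4 and 532 against 52.4 CPM outside it.

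Tnfrsf4 (chromosome 4, 156013843 to 156016612) and Tnfrsf18 (chromosome 4, 156026164 to 156028895) are neighbours, with 9.55 kb between the end of the former and the start of the latter. Over all T cells as clustered both were within 2-fold between the libraries, but this depended on which cells were counted. With mixed droplets added their log2 ratios were -1.35 and -1.22, past 2-fold lower in the responder library. With cells taken by their Cd3 UMIs in place of clusters the ratios were -1.18, also past it, and -0.96. Mixed droplets also carry macrophage RNA, which enters the total. They added 1235818 UMIs to the 410840 of the responder T cells and 261820 to the 401502 of the others. The part of this unequal dilution in the ratios was not tested. Tnfrsf4 had 567 [497-645] CPM in responder and 752 [670-842] CPM in non-responder cells, and Tnfrsf18 had 594 [522-673] and 854 [766-949.7] CPM. Inside L4, Tnfrsf4 was 2.34-fold higher in the responder library, 5495 against 2344 CPM, and 103 of the 129 responder UMIs came from 2 cells. Tnfrsf18 was at 2769 and 2302 CPM there. Outside L4 their log2 ratios were 0.09 and 0.21. The order of levels was that of L4 first, then L3 (415 and 221 CPM of Tnfrsf4 in the non-responder and responder cells) and L7 (300.0 CPM), then L2 (63.5 CPM in the non-responder cells).

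Il2ra (chromosome 2, 11642807 to 11693193) was at 68.2 [45.3-98.5] CPM in responder and 42.3 [24.7-67.8] CPM in non-responder T cells, with overlapping intervals, and with every cell thinned to 2000 UMIs the order turned, to a log2 ratio of -1.12. Within L4 it was at 639 and 146 CPM, a 4.38-fold difference. The responder value came from 3 cells with 9, 3 and 3 UMIs, while the non-responder cells had at most 3 UMIs and 11 of the 20 had none. Il2rb and Il2rg, the other chains of the interleukin-2 receptor, were within 2-fold in all T cells, with 304 against 173 UMIs and 180 against 144 UMIs in responder and non-responder cells.

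Ramp1 (chromosome 1, 91179822 to 91225196) was lower in the responder T cells, 9 UMIs against 55, or 21.9 [10.0-41.6] against 137 [103-178] CPM. The difference lay inside L4, where the responder cells had 1 UMI in all and 13 of the 20 non-responder cells had 46, up to 13 in a cell. Outside L4 there were 8 and 9 UMIs, too few for a ratio. Ccr8 (chromosome 9, 120092114 to 120094906) could not be compared: L4 had 1 responder and 2 non-responder UMIs, and the libraries 2 and 3 in all. Within L4, 3 of the 8 measured genes were more than 2-fold higher in the responder library (Il2ra, Icos and Tnfrsf4) and 2 more than 2-fold lower (Ramp1 and Penk), beside 9.23% and 10.8% of 878 genes.

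**Figure D3:**
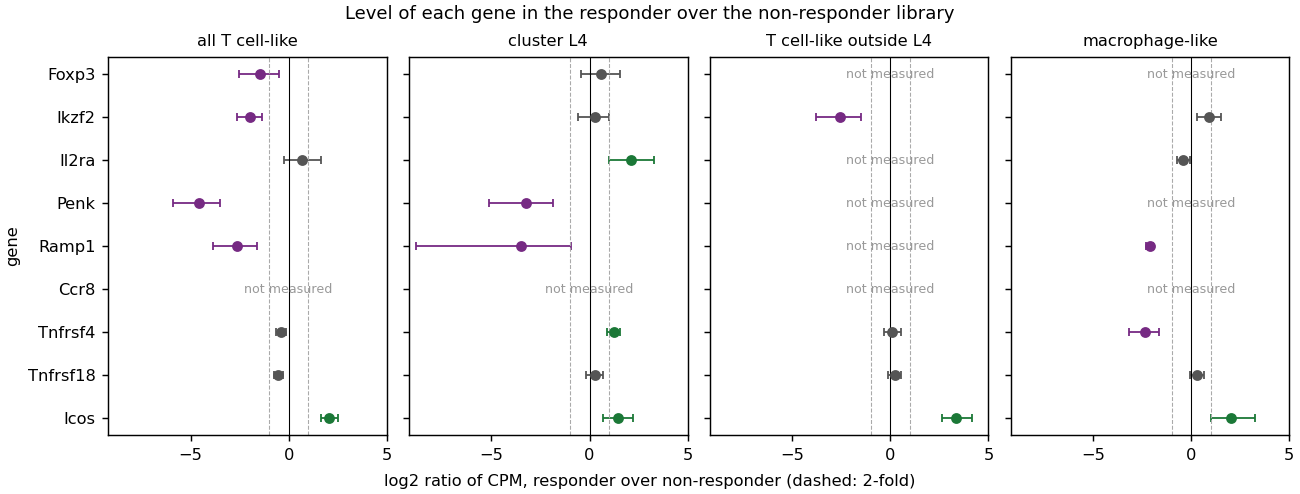
Log2 ratio of CPM, responder over non-responder, for each gene in all T cell-like cells, in cluster L4, in T cell-like cells outside L4 and in macrophage-like cells, with 95% counting intervals. Green points are more than 2-fold higher, purple points more than 2-fold lower and grey points within 2-fold in the responder library, and genes under 20 counts are marked as not measured. Foxp3 lies below the 2-fold line in all T cells and within it in L4, and Ramp1 lies below it in all T cells, in L4 and in macrophage-like cells.

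Penk (chromosome 4, 4133531 to 4138819) had, of the 8 genes measured in T cells, the largest fold between the libraries and the fewest cells behind it. There were 7 UMIs in 2 of 94 responder T cells and 161 UMIs in 6 of 69 non-responder T cells, or 17.0 [6.85-35.1] and 401 [341-468] CPM, a 23.5-fold difference. The 6 non-responder cells had 96, 43, 13, 4, 4 and 1 UMIs, the last 2 of them in the CD8+ cluster L3 and the others in L4. The highest cell held 59.6% of the UMIs and the 2 highest held 86.3%. Without the highest cell the non-responder level was 165 CPM and without the 2 highest 56.4 CPM. The interval of the fold covers the counting of UMIs and not the drawing of so few cells.

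The cell with 96 Penk UMIs was unlike the Foxp3 cells around it. It had 6965 UMIs in all, with 0 of Foxp3, Ikzf2, Il2ra, Icos and Ctla4, and it carried 39 UMIs of the Cd3 chains, 3 of Cd4, 11 of Tnfrsf4 and 5 of Tnfrsf18. It also held 175 UMIs of the granzyme Gzmc, 14 of Il1r2 and 8 of Il2, the growth factor gene of activated helper cells, which were 8 of the 9 Il2 UMIs in L4. The cells with 43, 13 and 4 Penk UMIs had 4, 5 and 2 UMIs of Foxp3. Among the T cells with Penk, 3 of 6 in the non-responder and 1 of 2 in the responder library therefore carried Foxp3.

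The responder cells with Penk were the L4 cell with 7 Foxp3 UMIs, which had 4, and an L7 cell with 3, which had 8 UMIs of Cd8a, 13 of the lymph node homing receptor Ccr7 and 0 of Foxp3. Mixed droplets added 6 UMIs in 3 of 89 responder droplets and 2 UMIs in 1 of 17 non-responder droplets. In macrophage-like cells Penk was in 1 of 4170 and 5 of 2442 cells, never above 1 UMI. The genes most like Penk in detection had phi values of at most 0.48 (Fbxw17, followed by Ebi3 at 0.44), with 8 cells carrying Penk, and are not read further.

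The opioid system around Penk was nearly empty in T cell-like cells. The receptor genes Oprm1, Oprd1 and Oprk1 had 0 UMIs in T cell-like cells of both libraries, and in macrophage-like cells Oprm1 alone was seen, with 2 UMIs in the responder library. Of the enzymes that cut proenkephalin, Pcsk2 and Cpe were at 0 in T cell-like cells, and Pcsk1 had 1 UMI, in a non-responder L4 cell. Anpep, a membrane peptidase that degrades enkephalins, was at 26.1 and 18.8 CPM in macrophage-like cells of the responder and non-responder tumours and had 0 UMIs in T cell-like cells. Of the list of 13, only the opioid growth factor receptor gene Ogfr was measured in T cells, at 122 and 79.7 CPM. In macrophage-like cells of the responder and non-responder library, Ogfr was at 108 and 84.6 CPM, and Pomc had 28 UMIs in each.

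The levels in other cells separated the 9 genes. Set against macrophage-like cells of the same library, all 6 measured genes were more than 2-fold higher in responder T cells, beside 17.3% of 11269 genes, and all 8 in non-responder T cells, beside 15.0% of 11139. Tnfrsf4 was 1227-fold and 312-fold higher, Icos 489-fold and 477-fold, and Tnfrsf18 138-fold and 241-fold, in the responder and the non-responder library. Ikzf2 was 33.9-fold and 244-fold higher. Il2ra, at 16.3-fold and 7.67-fold, and Ramp1, at 2.75-fold and 3.98-fold, were the nearest to the macrophage level. In the non-responder library the Ramp1 fold rests on L4, which held 46 of the 55 T cell UMIs. The non-responder levels of Ramp1 in L3 and L2 were near or below that of macrophage-like cells.

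**Figure D4:**
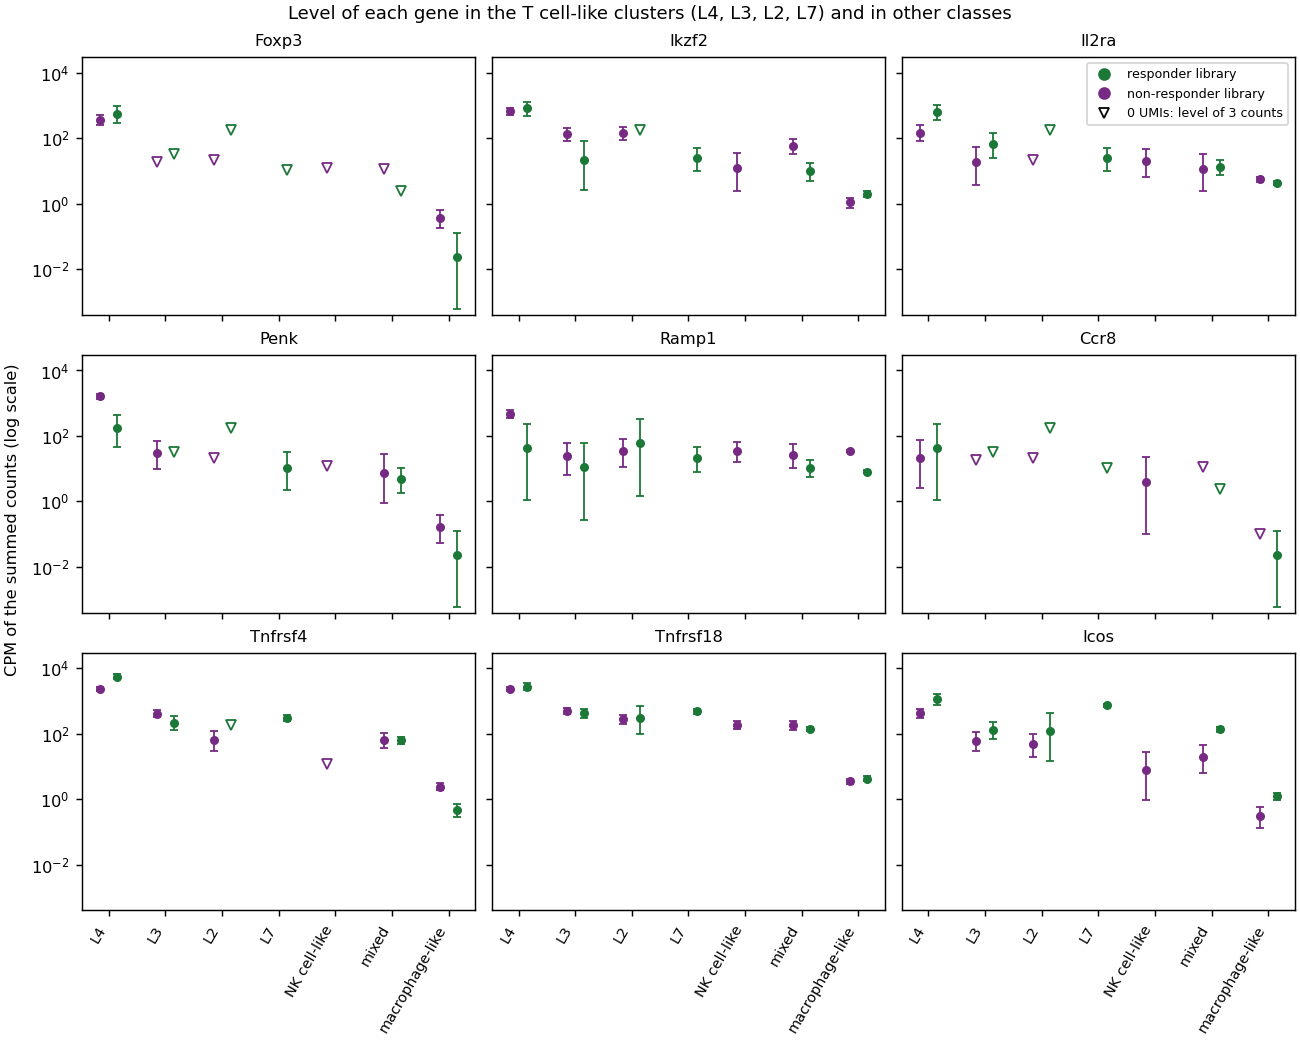
Level of each gene in CPM of summed counts (log axis) in the T cell-like clusters L4, L3, L2 and L7 and in NK cell-like, mixed and macrophage-like cells, with 95% counting intervals, responder in green and non-responder in purple. Open triangles mark 0 UMIs, drawn at the level that 3 counts would give, and groups of 1 cell are left out. Most genes drop steeply from L4 to macrophage-like cells, while non-responder Ramp1 in macrophage-like cells lies at 34.4 CPM, beside 24.4 in L3 and 35.3 in L2.

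Macrophage-like cells made up 95.3% (responder) and 95.2% (non-responder) of the kept cells, and low levels in them added up. For Ramp1 they held 93.8% of the UMIs in the responder library and 93.5% in the non-responder library, and for Il2ra 80.4% and 87.0%. T cell-like cells held 92.9% and 76.1% of the Foxp3 UMIs and 70.2% and 76.8% of those of Tnfrsf4. Penk lay 95.8% in T cells of the non-responder library, and in the responder library, with 15 UMIs, 46.7% in T cells and 40.0% in mixed droplets. Ikzf2 split differently in the libraries, with 68.5% of its UMIs in macrophage-like cells in the responder library and 20.6% in the other.

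**Figure D5:**
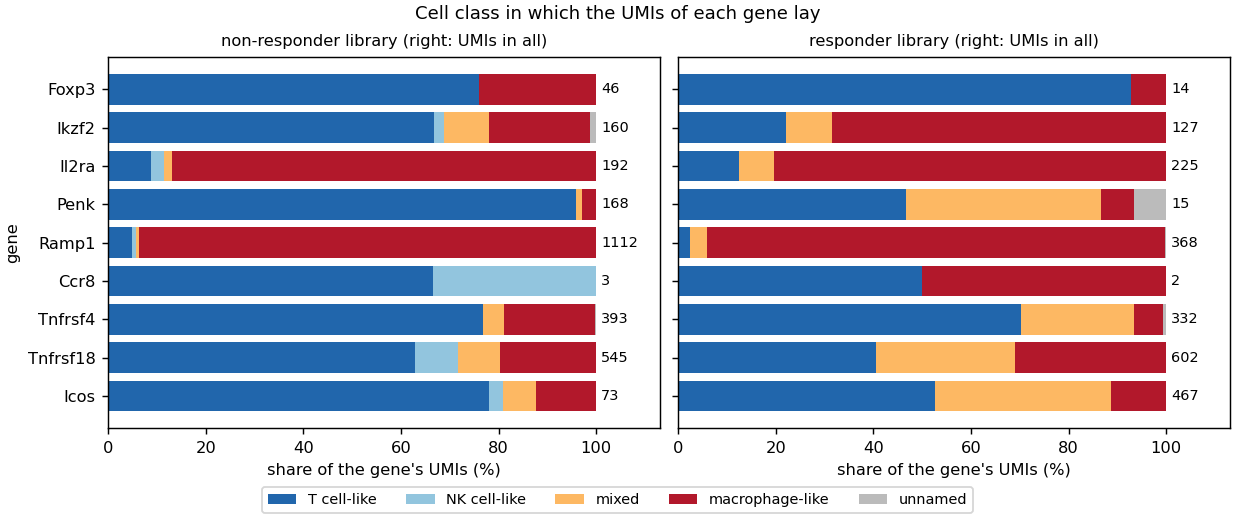
Share of the UMIs of each gene that lay in each cell class, with the total number of UMIs in the library at the right of each bar, non-responder library on the left and responder library on the right. Ramp1 and Il2ra bars are mostly macrophage-like in both libraries, and Foxp3 and Tnfrsf4 bars mostly T cell-like.

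Ramp1 in macrophage-like cells was the largest of these signals and differed between the libraries. There were 345 UMIs in 295 of 4170 cells of the responder library and 1040 UMIs in 666 of 2442 cells of the other, or 7.98 [7.16-8.86] and 34.4 [32.3-36.6] CPM, a 4.31-fold difference. With each cell thinned to 3000 UMIs it was in 2.21% [1.78-2.70] and 9.96% [8.80-11.2] of the cells. Of the 6 genes measured there, 1 was more than 2-fold higher in the responder library (Icos) and 2 lower (Ramp1 and Tnfrsf4), beside 3.71% and 6.12% of 11911 genes. Clusters C0 and C9, whose leading genes held a dendritic and no macrophage marker, can be left out, and Ramp1 was then at 7.31 and 32.6 CPM.

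Different macrophage clusters made up most of each library, so Ramp1 was also read cluster by cluster. The clusters that were mainly non-responder had 64.1 (C1), 29.9 (C2), 28.3 (C3) and 8.48 CPM (C8). The mainly responder clusters C4, C5, C6, C7, C9 and C10 had 5.97 to 13.8 CPM in their responder cells. The few non-responder cells in 4 of those clusters had higher levels than the responder cells beside them: 55.9 against 7.34 CPM in C4, 15.7 against 5.97 in C6, 24.8 against 9.02 in C7 and 59.0 against 6.51 in C10. Between 26 and 50 non-responder cells stand behind each of those values, and the intervals of C6 and C7 overlap. C0 was the exception, with 69.7 [46.7-100.1] CPM in 61 responder cells and 60.7 [49.8-73.4] in 198 non-responder cells, and these intervals overlap.

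The other genes were scarce in macrophage-like cells. Icos had 53 UMIs in 44 responder cells and 9 UMIs in 8 non-responder cells, 1.23 against 0.298 CPM, and Ctla4 followed the same order at 1.18 against 0.364 CPM. This is also the order of both genes in the T cells of the 2 libraries, and the part of free T cell RNA in it was not tested. Ikzf2 was at 2.01 and 1.09 CPM, the reverse of its order in T cells. Responder macrophage-like cells had 87 UMIs of Ikzf2 and 20 of Tnfrsf4, where responder T cells had 28 and 233. Of the 87, 85 were in macrophage-like cells with no UMI of a Cd3 chain.

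Tnfrsf4 in macrophage-like cells came from few cells of the non-responder library. Of its 73 UMIs, 33 were in 4 of 16 cells that carried at least 3 of 9 dendritic markers, the highest with 16. Another 12 each were in 2 droplets that held Foxp3, 10 and 7 UMIs of the Cd3 chains, 3 and 6 of Ctla4 and 3 and 4 of Ikzf2 along with macrophage RNA. The other 8 non-responder macrophage-like cells with Foxp3 had 1 UMI of it and no Cd3. In the responder library Tnfrsf4 had 20 UMIs in 19 cells, and no cell carried 3 dendritic markers. Without C0 and C9 the level was 0.472 CPM in the responder and 1.38 CPM in the non-responder cells.

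At resolution 0.5 a cluster with dendritic leading genes (Ccl17, Mgl2 and Ccl22), which also met the macrophage limit, stood apart with 46 responder and 83 non-responder cells. Its level of Il2ra was 8.95 CPM (3 UMIs in 1 cell) and 32.9 CPM. That of Tnfrsf18 was 26.8 and 51.9 CPM, several times the macrophage-like levels of 4.30 and 3.54 CPM for Tnfrsf18. Ramp1 was at 50.7 and 44.3 CPM. Foxp3, Penk and Ccr8 had 0 UMIs there. NK cell-like cells, 17 of 18 from the non-responder library, carried Tnfrsf18 in 15 of 17 cells at 189.6 CPM, Il2ra at 19.8 CPM and Ramp1 at 35.6 CPM, with 0 UMIs of Foxp3, Penk and Tnfrsf4.

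Ligands of the 9 products were looked up from a list of 9 genes. Ccl1, a ligand of Ccr8, was at 253 CPM in responder T cells and 2.49 CPM in non-responder T cells, and 95 of its 104 responder UMIs were in 3 L3 cells. In the non-responder library it lay in NK cell-like cells, at 545 CPM. Ccl8, the other Ccr8 ligand of the mouse, was in macrophage-like cells at 283 and 49.4 CPM, responder and non-responder. Icosl, the partner of Icos, was in macrophage-like cells at 21.0 and 28.0 CPM. Tnfsf18, the ligand of GITR, had 0 UMIs in T cell-like and NK cell-like cells and 1 in macrophage-like cells, and Tnfsf4, that of OX40, was highest in non-responder NK cell-like cells at 47.4 CPM.

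Calcrl, the receptor that Ramp1 modifies, was not detected in T cells. It had 0 UMIs in T cell-like cells and was at 2.29 CPM (responder) and 4.10 CPM (non-responder) in macrophage-like cells. Crcp, also listed as a receptor partner, was at 46.2 and 44.8 CPM in responder and non-responder T cells. Calca and Calcb, which encode CGRP, had 0 UMIs in responder T cells and 2 and 1 UMIs in non-responder T cells. Adm, whose product adrenomedullin acts on Calcrl with the other members of the family, was at 0.994 CPM in the macrophage-like cells of the responder library and at 15.3 CPM in those of the other. Ramp3 was at 125 CPM in non-responder L4 cells, 12 UMIs in 4 cells, with 0 UMIs in the responder L4 cells. Outside L4 it had 7 UMIs in responder and 0 in non-responder cells, and over all T cells 7 and 12, too few for a ratio.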

How the data were processed

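Per the labels' protocols, sorted CD45+ cells went through 10x Genomics droplet capture (3' v3 chemistry), and per the submitters' processing notes Cell Ranger 1.1.0 and the builds mm10 and GRCm38 were used. The authors deposited a filtered matrix of UMI counts per gene and barcode for each library, with 4425 responder and 2580 non-responder barcodes and totals of 45866561 and 32032569 UMIs. The rule that called cells was not given in the sources used here.

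Of 7005 barcodes, 64 were removed for fewer than 500 genes or more than 10% mitochondrial UMIs. No doublet caller was used. Counts were scaled to 10000, log-transformed, reduced to 30 components of 2000 variable genes and clustered with Leiden (15 neighbours, resolution 1.0, scanpy 1.11.5), and T and NK clusters were clustered again. A marker counted at 50 CPM and in 10% of a cluster's cells, and a cluster needed 50% of the T or NK markers, or 75% of the macrophage markers, for its name. Clusters that met both limits were called mixed. Against all other clusters the leading genes of L2 held an NK and no T cell marker. Members, lists and rules were chosen with earlier results of these data known. Genes named as most like Foxp3 or Penk were the 8 others with the largest phi, among genes seen in 10 or more T cell-like cells. Shares have exact Clopper-Pearson intervals, levels exact Poisson intervals and ratios conditional exact binomial intervals. The limit for a share of 0 is that of 3 cells. A gene was measured at 20 counts, and past 2-fold was the call. For a gene at 0 in one set, 3 counts gave a bound, and it was called only where that bound was past 2-fold on the side of the zero. The steps were tested on simulated data. Alternatives covered the T cell definition, clustering, depth, scaling (TMM from edgeR 4.0.16 among them), count minimum and pseudocount. Coordinates are those of GENCODE M21 on GRCm38.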

Additional observations from a re-analysis of the deposited data

How the results depend on the processing

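For the log2 ratios of 8 genes in all T cell-like cells, 117 alternative values stayed within the interval of the reported one and 18 did not, and none turned the direction of a gene called past 2-fold. Ratios within clusters, in macrophage-like cells and between cells with and without Foxp3 were not recomputed gene by gene. Of 80 alternative values for shares and counts of genes, 78 stayed within the interval of the reported share or within 1.5 times the reported count. The 2 exceptions were responder counts of genes more than 2-fold higher in T cells with Foxp3, 5 as reported. That count was 2 of 3 measured with cells thinned to 2000 UMIs, where fewer cells and counts remained, and 3 of 4 without the cell with the most Penk UMIs, an alternative chosen after seeing the data. The share of T cells with Foxp3 ranged from 2.0% to 4.82% in the responder and from 15.9% to 23.8% in the non-responder library. These ranges leave out the setting without cluster L2. It gave 4 of 89 responder and 15 of 43 non-responder cells, the latter above the non-responder range. The number of genes lower in responder T cells ranged from 3 to 6 and of those higher was 1 throughout. Log2 ratios in T cells ranged from -5.12 to -3.93 for Penk, -3.32 to -2.20 for Ramp1, -2.92 to -1.63 for Ikzf2, -2.74 to -1.22 for Foxp3 and 1.43 to 2.28 for Icos. The Penk range lacks the setting without the 2 cells with the most Penk in each library. That setting left 0 responder and 22 non-responder Penk UMIs, so it gave no ratio. Of the genes not called, Tnfrsf4 ranged from -1.35 to -0.21, Tnfrsf18 from -1.22 to -0.36 and Il2ra from -1.12 to 0.86, so each passed 2-fold under some settings, and the sign of Il2ra depended on them. No paired analysis was possible because each group had 1 library, and for the same reason no replicate could be left out. Ccr8 had too few UMIs for a ratio in any class, and the responder values for T cells with Foxp3 rest on 4 cells.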
